A study of Homo sapiens with 4 samples.

Results

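The 9 genes described here, IL6ST, IL6R, OSMR, LIFR, JAK1, JAK2, STAT3, SOCS2 and SOCS3, encode receptors, kinases, a transcription factor and inhibitors of the IL-6 family signaling pathway. They were chosen by gene name, and all 9 were found among the 31907 gene names that had a count in any of 4 RNA-seq libraries. The libraries were made from HGC-27, a human gastric cancer (GC) cell line. In 2 of them the cells had been treated with PBS, the control, and in the other 2 with recombinant IL-17B (rIL-17B) at 200 ng/ml. Both treatments lasted 48 h, and no other allele or agent was labelled. Bulk RNA of 1 established line was used, and the labels did not say whether replicates came from separate cultures, so p-values measured only the spread between these libraries. The sequencing was done to look for pathways through which IL-17B, a cytokine of the IL-17 family that binds the receptor IL-17RB, acts on GC cells.

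Most cytokines of the IL-6 family signal through receptor complexes that contain IL6ST, also called gp130, the signal-transducing chain that these complexes share. IL6R binds IL-6, OSMR binds oncostatin M, and LIFR binds leukemia inhibitory factor (LIF). JAK kinases bound to the receptor tails then phosphorylate STAT3, which enters the nucleus and activates its targets. Among these targets is SOCS3, which binds gp130 and JAK and shuts the signal off, whereas SOCS2 acts mainly on growth hormone signaling. In gastric epithelium, signaling from gp130 to STAT3 is known for its link to inflammation and tumor growth.

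STAT proteins bind DNA at the letters TTCNNNGAA, a motif that is its own reverse complement, so that both strands were searched at once. RefSeq promoter windows on GRCh38.p14, each reaching from 250 bases before a transcript start to 50 bases after it, were available for 8 of the 9 genes, in 16 windows. The motif was present in 1 of these 8 genes, LIFR, in 2 of its windows. No window of SOCS3 or LIFR held the start of that gene in GENCODE 29, at chr17:78360077 and chr5:38608354. The sequence around those 2 starts was therefore not searched. Over all genes, 2689 of 35116 windows (7.66%) and 2560 of 27305 genes (9.38%) held it. The 2 LIFR windows with the motif in capitals are shown, because they were the matches among the receptors. The windows of IL6ST and OSMR, the receptor genes with the highest levels per kilobase in these cells, are shown beside them for comparison and held no match. All 4 are printed 5′ to 3′ on the strand of the gene, and a match describes letters in the window, not a bound site.
LIFR, chr5:38595356-38595655, minus strand: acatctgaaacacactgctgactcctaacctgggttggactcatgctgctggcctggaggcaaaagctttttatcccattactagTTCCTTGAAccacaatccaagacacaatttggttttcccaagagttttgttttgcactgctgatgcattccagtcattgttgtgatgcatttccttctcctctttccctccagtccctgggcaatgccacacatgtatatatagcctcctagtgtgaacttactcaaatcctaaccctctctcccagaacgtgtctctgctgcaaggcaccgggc
LIFR, chr5:38557418-38557717, minus strand: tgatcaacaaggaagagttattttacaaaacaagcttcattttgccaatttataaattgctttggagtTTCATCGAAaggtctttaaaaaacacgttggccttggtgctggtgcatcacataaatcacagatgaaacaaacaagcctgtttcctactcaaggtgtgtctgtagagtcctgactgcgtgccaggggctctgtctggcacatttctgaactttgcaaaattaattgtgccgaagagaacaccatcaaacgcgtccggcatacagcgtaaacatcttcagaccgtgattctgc
IL6ST, chr5:55994914-55995213, minus strand: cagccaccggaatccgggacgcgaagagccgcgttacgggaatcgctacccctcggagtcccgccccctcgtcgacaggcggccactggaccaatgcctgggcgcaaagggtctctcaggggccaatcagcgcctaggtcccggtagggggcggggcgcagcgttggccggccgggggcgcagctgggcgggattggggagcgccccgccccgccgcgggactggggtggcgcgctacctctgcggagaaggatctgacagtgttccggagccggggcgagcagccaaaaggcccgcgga
OSMR, chr5:38845762-38846061, plus strand: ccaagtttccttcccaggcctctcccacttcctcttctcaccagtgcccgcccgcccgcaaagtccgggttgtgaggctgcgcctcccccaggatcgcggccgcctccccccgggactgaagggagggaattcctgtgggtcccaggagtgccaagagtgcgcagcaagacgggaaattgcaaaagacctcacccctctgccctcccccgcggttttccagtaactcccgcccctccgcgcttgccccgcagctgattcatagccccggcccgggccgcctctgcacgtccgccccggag
In LIFR the first base of the motif lay 165 bases before the start in the first window and 182 bases before it in the second. The GC content of these windows was 47.3% and 42.3%, against 81.7% in the third LIFR window, which held no motif.

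The libraries held between 12888029 and 17555879 counts after unusable names had been left out, so 3 counts, taken as the floor, were worth 0.171 to 0.233 CPM, the counts of a gene per 1e+06 counts of its library. No pair of libraries agreed within sampling noise, and rIL-17B replicate 1 stood apart from the other 3. The chi-square per degree of freedom between libraries was 3.66 for the 2 PBS libraries and 6.55 and 8.71 for rIL-17B replicate 2 against PBS replicates 1 and 2, but 140 between the rIL-17B replicates. At most 3 counts, against at least 100 in each of the other libraries, were found for 342 genes in rIL-17B replicate 1 and for 0 genes in any other library. The mesenchymal markers VIM, FN1, CDH2, COL1A1, COL1A2 and SPARC summed to 50542, 49854 and 42253 CPM in PBS replicates 1 and 2 and rIL-17B replicate 2, and to 885 CPM in rIL-17B replicate 1, where all 6 were lower. The summed epithelial markers CDH1, EPCAM, KRT8, KRT18, KRT19 and CLDN4 lay at 784, 792 and 1007 CPM in the same 3 libraries and at 1825 CPM in rIL-17B replicate 1, mostly from the keratins KRT8 and KRT18. KRT19 went the other way, with 0.0684 CPM in rIL-17B replicate 1 and 2.96 to 3.34 CPM elsewhere, and CLDN4 lay at 6.73 and 8.38 CPM in the PBS libraries and at 6.64 and 5.92 CPM in the treated ones. CDH1, which encodes E-cadherin, stayed under 1 CPM in every library. Of the gastric markers TFF1, TFF2, MUC5AC, GKN1, PGC and CLDN18, TFF1 and PGC were at 0 in every library and the sum was between 1.31 and 3.18 CPM. The library protocol in the labels mentions monocytes, and the 10 monocyte markers PTPRC, CD14, LYZ, CSF1R, FCGR3A, ITGAM, CD163, S100A8, S100A9 and FCN1 summed to 13.7, 14.8 and 13.5 CPM in the same 3 libraries and 8.48 CPM in rIL-17B replicate 1. In rIL-17B replicate 1 that sum was nearly all CSF1R, which lay at 8.14 CPM there and between 3.90 and 6.15 CPM elsewhere, while PTPRC, LYZ, FCGR3A, ITGAM, CD163, S100A9 and FCN1 were at 0. PTPRC, which encodes the leukocyte antigen CD45, was between 1.71 and 2.95 CPM elsewhere. Values are therefore given for both treated libraries, and the fold change of each of the 9 genes also with each treated library alone.

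In the PBS-treated cells, every one of the 9 genes was expressed above the floor. Levels of different genes were compared as CPM per kilobase of exon, the union of the exons of each gene in GENCODE 29. IL6ST was highest, at 38.8 ± 1.25 CPM per kilobase (SD, n = 2), above 94.5% of the tested genes that had a length. OSMR followed at 28.9 ± 0.099 and JAK1 at 25.6 ± 1.17, and STAT3 reached 20.6 ± 0.020 CPM per kilobase. SOCS3 lay at 17.3 ± 0.328 and LIFR at 7.31 ± 0.072 CPM per kilobase. These 6 genes lay above the median of 4.04 CPM per kilobase over 16093 genes. The 3 genes below the median were JAK2 at 3.23 ± 0.262, IL6R at 2.06 ± 0.364 and SOCS2 at 0.831 ± 0.203 CPM per kilobase. The shared chain IL6ST thus exceeded the IL-6-specific receptor IL6R by a ratio of 18.8 per kilobase, and OSMR exceeded LIFR in both libraries. No neighbours in this order had overlapping values in the 2 PBS libraries. With the length of the longest transcript in place of the exon union, STAT3 came out above JAK1, at 35.97 against 32.004 CPM per kilobase, and SOCS2 moved to 1.51 CPM per kilobase, while the rest of the order was the same.

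The order in rIL-17B replicate 2 was the same as in the PBS libraries. In rIL-17B replicate 1 it was not, and SOCS3 came first at 24.5 CPM per kilobase, followed by STAT3 at 22.8, JAK1 at 18.9, OSMR at 16.7 and IL6ST at 15.7. Ratios within a library, which do not depend on its total, showed the same split for several pairs. IL6ST per kilobase was 5.47, 5.15 and 4.64 times LIFR in PBS replicates 1 and 2 and rIL-17B replicate 2, and 2.097 times LIFR in rIL-17B replicate 1. IL6ST over IL6R was 17.1, 21.0 and 14.3 in the same 3 libraries and 4.65 in rIL-17B replicate 1. JAK1 over JAK2 went the other way, at 7.25, 8.67 and 8.25 in those 3 libraries and 15.8 in rIL-17B replicate 1. SOCS3 over STAT3 was 0.827, 0.848 and 0.855 in these 3 libraries and 1.07 in rIL-17B replicate 1. SOCS3 over SOCS2 did not show the split, at 17.5, 25.4 and 24.2 in these 3 libraries and 28.2 in rIL-17B replicate 1.

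The comparison of rIL-17B with PBS asked which genes differ after treatment. With all 4 libraries, none of the 9 genes passed the quasi-likelihood F test of edgeR at an adjusted p under 0.05 (Benjamini-Hochberg over 16361 genes). The same fit called 0% of all genes, and DESeq2 called 0 of 31907. At an unadjusted p under 0.05, edgeR called 226 genes (1.38%) and DESeq2 547 (1.71%), and none of the 9 was among either. An exact permutation test of a single gene over 2 against 2 libraries cannot go below a two-sided p of 0.3333 and was not used. The treated libraries were therefore also set against both PBS libraries one at a time. These fits take the spread from the PBS pair. It was pooled over genes and treated as known, so the spread of a single gene between the PBS libraries hardly entered. The fits also assume that the lone treated library varies like that pair, so that they compare those libraries rather than the treatments. Their small p-values rest on both assumptions. For rIL-17B replicate 2 alone, 0 of the 9 genes passed, beside 504 of 17103 genes tested (2.95%), of which 110 (0.643%) were higher and 394 (2.3%) lower. For rIL-17B replicate 1 alone, 6 of the 9 passed, beside 9489 of 17223 genes (55.1%). IL6ST, OSMR, JAK1 and JAK2 were lower, in a library where 31.9% of genes were called lower, and IL6R and SOCS3 were higher, where 23.2% were called higher.

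**Figure D1:**
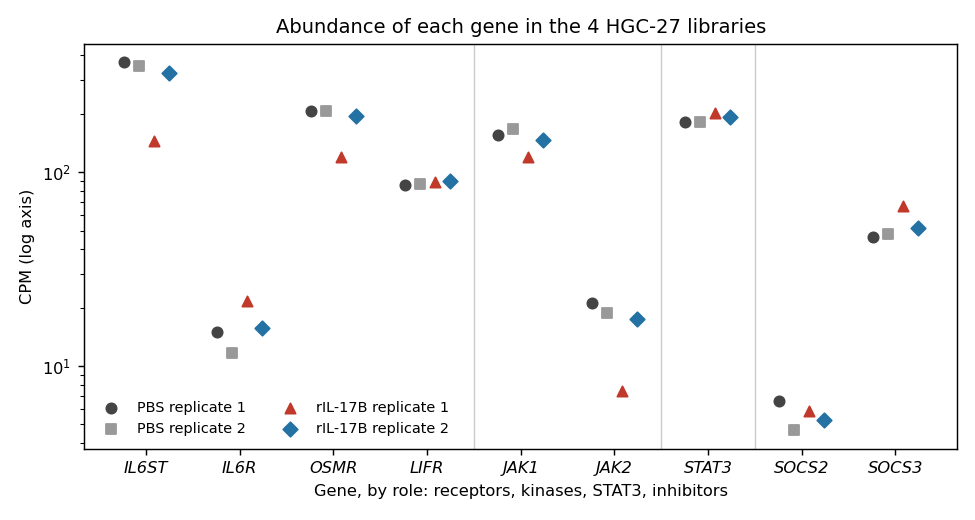
CPM of each of the 9 genes by library, on a log axis, with 1 point per library and grey lines between receptors, kinases, STAT3 and inhibitors. IL6ST, OSMR, JAK1 and JAK2 are lowest in rIL-17B replicate 1, while LIFR lies between 86.1 and 89.6 CPM in all 4 libraries.

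Among the receptors, IL6ST was measured at 369 CPM in PBS replicate 1, 352 in PBS replicate 2, 146 in rIL-17B replicate 1 and 326 in replicate 2. Both treated libraries lay below both PBS libraries, but replicate 1 held 40.4% of the PBS mean and replicate 2 90.4%. The log2 fold change of IL6ST over all 4 libraries was -0.66 (SE 0.49, 95% interval -2.06 to 0.74), with an adjusted p = 0.661 by edgeR. It was -1.44 with rIL-17B replicate 1 alone (adjusted p = 2.52e-57 from the same tool) and -0.15 with replicate 2 alone (adjusted p = 0.436). The counting error was small beside these gaps, since the 95% Poisson intervals, which cover counting error only and treat PCR copies as separate molecules, ran from 139 to 152 CPM in rIL-17B replicate 1 and from 317 to 334 CPM in replicate 2. IL6ST spans chr5:55935095-55994993 on the minus strand of GRCh38, and its pseudogene IL6STP1 had 0 counts in every library.

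OSMR, the chain that pairs with gp130 for oncostatin M, showed the same order of libraries. Its level was 208 CPM in PBS replicate 1, 207 in PBS replicate 2, 120 in rIL-17B replicate 1 and 194 in replicate 2. The groups did not overlap, and the treated libraries held 57.7% and 93.6% of the PBS mean. Over all 4 libraries its log2 fold change was -0.46 (SE 0.32), with an adjusted p = 0.661 from edgeR. It was -0.93 with rIL-17B replicate 1 alone (adjusted p = 8.35e-24 from edgeR) and -0.10 with replicate 2 alone (adjusted p = 0.689). OSMR (chr5:38845858-38945596, plus strand) shares exon sequence with RICTOR, an mTOR complex subunit on the opposite strand, and whether reads were counted by strand is not given in the sources used here. RICTOR lay at 88.5, 86.7, 115 and 92.6 CPM in PBS replicates 1 and 2 and rIL-17B replicates 1 and 2, so it was higher in the library where OSMR was lower.

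LIFR, the receptor chain for LIF, hardly varied. Its level was 86.1 and 87.3 CPM in PBS replicates 1 and 2 and 88.6 and 89.6 CPM in the same-numbered rIL-17B replicates. The whole range fell within the counting interval of a single library, 81.6 to 90.8 CPM in PBS replicate 1. LIFR had a log2 fold change of -0.03 (SE 0.10, 95% interval -0.33 to 0.27), with an adjusted p = 0.882 from edgeR. It was -0.10 with rIL-17B replicate 1 alone (adjusted p = 0.364 from edgeR) and 0.04 with replicate 2 alone (adjusted p = 0.907). With library totals alone in place of the TMM factors, the sign over all 4 libraries turned to 0.04, and with TMM factors the groups overlapped. LIFR (chr5:38474963-38608354, minus strand) overlaps exons of the antisense gene LIFR-AS1, which had 13 to 27 counts per library beside 1125 to 1573 for LIFR.

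IL6R, which binds IL-6 itself and can also be shed as a soluble receptor, was the receptor with the lowest level per kilobase. It was measured at 15.0 and 11.6 CPM in PBS replicates 1 and 2 and at 21.8 and 15.8 CPM in the same-numbered rIL-17B replicates. Both treated libraries lay above both PBS libraries. Its log2 fold change was 0.41 (SE 0.24, 95% interval -0.27 to 1.10), with an adjusted p = 0.661 from edgeR. It was 0.56 with rIL-17B replicate 1 alone (adjusted p = 0.00136 from edgeR) and 0.23 with replicate 2 alone (adjusted p = 0.598). IL6R (chr1:154405193-154469450, plus strand) rested on 150 to 318 counts, and the 95% Poisson intervals of PBS replicate 1 and rIL-17B replicate 2 overlapped, at 13.12 to 16.99 and 13.97 to 17.75 CPM.

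The kinases JAK1 and JAK2, which phosphorylate the receptor tails and STAT3, were both lower in rIL-17B replicate 1. JAK1 lay at 156 and 167 CPM in PBS replicates 1 and 2, 119 in rIL-17B replicate 1 and 147 in replicate 2. JAK2 lay at 21.1 and 18.8 CPM in PBS replicates 1 and 2, 7.39 in rIL-17B replicate 1 and 17.4 in replicate 2. For both genes the groups did not overlap, and rIL-17B replicate 1 held 73.9% of the PBS mean for JAK1 and 37.1% for JAK2, the lowest share among the 9 genes. The log2 fold change was -0.34 for JAK1 (SE 0.19) and -0.73 for JAK2 (SE 0.52), each with an adjusted p = 0.661 from edgeR. For rIL-17B replicate 1 alone it was -0.57 for JAK1 and -1.57 for JAK2 (adjusted p = 1.15e-09 and 5.89e-16 from edgeR). For replicate 2 alone it was -0.14 and -0.20 (adjusted p = 0.529 and 0.624). The 95% interval of JAK2 in the latter fit, -0.50 to 0.10, did not reach the size seen in replicate 1. JAK1 (chr1:64833229-64966504, minus strand) overlaps exons of RAVER2 on the opposite strand, which had 358 to 437 counts beside 1744 to 2584 for JAK1, and JAK2 lies at chr9:4984390-5128183 on the plus strand.

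STAT3, the transcription factor of the pathway, differed little between libraries. It was measured at 181 and 182 CPM in PBS replicates 1 and 2, 201 in rIL-17B replicate 1 and 193 in replicate 2. Both treated libraries were above both PBS libraries, at 111% and 106% of the PBS mean. The SD of the PBS libraries, 0.175 CPM, was smaller than counting error. The 95% Poisson interval of PBS replicate 1, 174.8 to 188.1 CPM, overlapped that of rIL-17B replicate 2, 186.7 to 199.8 CPM. With TMM factors rIL-17B replicate 1 lay at 187.6 CPM, against 187.0 in PBS replicate 1. STAT3 had a log2 fold change of 0.05 (SE 0.10, 95% interval -0.24 to 0.33), with an adjusted p = 0.797 from edgeR. It was 0.01 with rIL-17B replicate 1 alone and 0.09 with replicate 2 alone, with adjusted p of 0.914 and 0.744 from edgeR. The counts give the transcript of STAT3 (chr17:42313324-42388568, minus strand), not its phosphorylation.

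SOCS3, the feedback inhibitor that STAT3 induces, lay at 46.5 and 47.8 CPM in PBS replicates 1 and 2, 66.8 in rIL-17B replicate 1 and 51.3 in replicate 2. Both treated libraries were above both PBS libraries, at 142% and 109% of the PBS mean. SOCS3 had a log2 fold change of 0.25 (SE 0.13, 95% interval -0.13 to 0.62), with an adjusted p = 0.661 from edgeR. It was 0.37 with rIL-17B replicate 1 alone (adjusted p = 0.00143 from edgeR) and 0.12 with replicate 2 alone (adjusted p = 0.717). SOCS3 lies at chr17:78356778-78360077 on the minus strand.

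SOCS2, the lowest of the 9 genes per kilobase, was the gene whose groups overlapped on library totals. It lay at 6.60 and 4.66 CPM in PBS replicates 1 and 2 and at 5.88 and 5.24 CPM in the same-numbered rIL-17B replicates, so both treated values fell between the PBS values. The log2 fold change was -0.09 (SE 0.30, 95% interval -0.96 to 0.77), with an adjusted p = 0.871 from edgeR, and it turned to 0.19 without PBS replicate 1. It was -0.09 with rIL-17B replicate 1 alone and -0.12 with replicate 2 alone, with adjusted p of 0.798 and 0.904 from edgeR. These values rested on 60 to 105 counts per library, and a change smaller than the interval was not detectable with these libraries. SOCS2 (chr12:93569814-93583487, plus strand) overlaps exons of SOCS2-AS1, which had 3 to 11 counts.

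**Figure D2:**
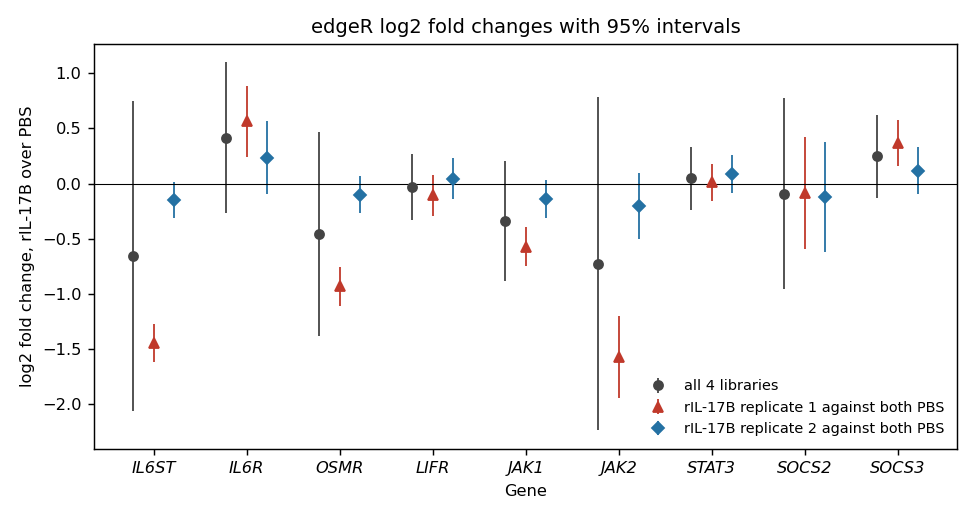
Log2 fold change of rIL-17B over PBS for each gene from edgeR, with 95% intervals, over all 4 libraries and with each rIL-17B library alone against both PBS libraries. Over all 4 libraries every interval includes 0, and the intervals of replicate 1 alone lie away from 0 for IL6ST, OSMR, JAK1, JAK2, IL6R and SOCS3.

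Across the 9 genes, 8 had groups that did not overlap in CPM, with IL6R, LIFR, STAT3 and SOCS3 higher and IL6ST, OSMR, JAK1 and JAK2 lower after rIL-17B. Such a pattern was common in these libraries, since 59% of the 16361 tested genes had it, 31.5% higher and 27.5% lower. With TMM factors the count was 7, beside 58.9% of all tested genes. At least 2-fold below the PBS mean in rIL-17B replicate 1 were 2 of the 9, IL6ST and JAK2, beside 3040 of all tested genes (18.6%), with 0.5 CPM added to every value, and 0 of the 9 were 2-fold above it, beside 2.61%. In either direction the share of all genes in that library was 21.2%. In rIL-17B replicate 2, 0 of the 9 were 2-fold from the PBS mean in either direction, beside 104 of all genes (0.636%). These split into 0.0611% above and 0.575% below. The 2 PBS libraries were 2-fold apart for the same number, 104 genes. That count sets 1 library against 1 other rather than against a mean of 2, so the 2 counts are not on the same measure. TMM factors moved the median log2 ratio of all genes in rIL-17B replicate 1 by -0.126 against library totals, and by -0.004 in replicate 2. Relative to the median of all genes on library totals, the log2 ratios in replicate 1 were -1.45 for JAK2, -1.39 for IL6ST, -0.87 for OSMR, -0.52 for JAK1, 0.42 for SOCS3 and 0.61 for IL6R. LIFR at -0.05, SOCS2 at -0.02 and STAT3 at 0.07 stayed near it, and LIFR and SOCS2 had opposite signs on the 2 scales before that median was taken off. The mesenchymal, epithelial and monocyte marker sums changed in the same library as the 6 genes, and their part in these values was not tested. In bulk libraries, fewer cells of a type and less RNA per cell cannot be told apart.

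JAK2 had the widest range of log2 values over the 4 libraries, 1.45, and the genes nearest to it were sought by the distance between their profiles of log2(CPM + 0.5), each centred on its own mean over the 4 libraries. The 5 nearest of 16360 genes were AC092111.1, BACE1, TMEM88, TTC25 and LRP12, at distances of 0.031 to 0.058, where the median distance was 1.33. AC092111.1, TMEM88 and TTC25 rested on at most 29 counts per library. BACE1, the beta-secretase, lay at 103, 91.9, 37.8 and 82.9 CPM in PBS replicates 1 and 2 and rIL-17B replicates 1 and 2, and LRP12 at 51.9, 46.1, 18.1 and 44.3 CPM. The profile was not rare, as 1238 genes lay nearer to JAK2 than 0.5.

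Of 58 other genes of the pathway, 49 could be tested, and 0 passed with all 4 libraries, where the fit called 0% of all genes. For rIL-17B replicate 2 alone 1 passed, SOCS6, which encodes a further SOCS family protein and is named because it was the only one, after its values were seen. It was lower, in a library where 2.3% of genes were called lower. SOCS6 lay at 41.6 and 49.7 CPM in PBS replicates 1 and 2, 23.1 in rIL-17B replicate 1 and 34.7 in replicate 2. Its log2 fold change with replicate 2 alone was -0.39 (SE 0.12), with an adjusted p = 0.0307 from edgeR, and over all 4 libraries it was -0.71 (SE 0.30, adjusted p = 0.661). For rIL-17B replicate 1 alone 35 of the 49 passed, 4 higher and 31 lower, beside the 23.2% and 31.9% over all genes. The median log2 ratio of the 49 to the PBS mean was -0.73 in replicate 1 and -0.07 in replicate 2, and that of all genes was 0.08 and -0.001.

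Of 11 ligand genes 7 were tested, and for rIL-17B replicate 1 alone 1 was called higher and 4 lower. IL6 lay at 15.97, 16.76, 1.03 and 11.68 CPM in PBS replicates 1 and 2 and rIL-17B replicates 1 and 2, and LIF at 16.1, 18.4, 6.29 and 16.7 CPM in the same order, both lowest in rIL-17B replicate 1. CLCF1 was between 13.6 and 17.4 CPM and was not called in any fit. OSM, which encodes oncostatin M, had 1 to 5 counts per library, so that no comparison could be read from it.

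The 4 other receptors and sheddases tested had a median log2 ratio of -0.37 in rIL-17B replicate 1 and 0.04 in replicate 2. For all genes it was 0.08 and -0.001. Among the 4 were ADAM10 and ADAM17, proteases that can release IL6R from the cell surface, and IL11RA, the receptor for IL-11. ADAM10 lay at 162, 162, 108 and 161 CPM in PBS replicates 1 and 2 and rIL-17B replicates 1 and 2, and ADAM17 at 50.30, 50.05, 44.82 and 53.43 CPM. IL11RA lay at 7.17, 4.81, 1.98 and 7.46 CPM, so that rIL-17B replicate 2 was above both PBS libraries and replicate 1 below both. With replicate 1 alone the log2 fold change was -0.72 for ADAM10, -0.30 for ADAM17, -1.74 for IL11RA and 0.12 for IL27RA. With replicate 2 alone it was -0.01, 0.09, 0.30 and -0.31 in the same order. IL27RA was between 6.84 and 10.1 CPM and was not called in any fit.

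Of the remaining JAK kinases, TYK2 lay at 115 to 156 CPM and JAK3 at 0.547 to 4.39 CPM. JAK3, the kinase of the common gamma chain, was called lower for rIL-17B replicate 1 alone, and TYK2 was not called. The 6 other STAT genes had a median log2 ratio to the PBS mean of -1.16 in rIL-17B replicate 1 and -0.07 in replicate 2. For all genes it was 0.08 and -0.001. STAT2, a factor of interferon signaling, lay at 139, 133, 42.4 and 129 CPM in PBS replicates 1 and 2 and rIL-17B replicates 1 and 2. STAT6, which signals for IL-4, was higher in both treated libraries, at 136, 137, 186 and 149 CPM, and STAT5B stayed between 58.9 and 63.7 CPM. For STAT3 with rIL-17B replicate 1 alone the 95% interval of the log2 fold change was -0.15 to 0.18, against a log2 fold change of -1.82 for STAT2.

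All 14 further SOCS, PIAS and phosphatase genes, which restrain or tune the pathway, were tested. PTPN11, the phosphatase SHP2 that binds gp130, lay at 261, 268, 351 and 277 CPM in PBS replicates 1 and 2 and rIL-17B replicates 1 and 2. PTPN1, SOCS4 and SOCS5 were not called, and SOCS4 and SOCS5 stayed between 46.1 and 58.6 CPM. The median log2 ratio of the list was 0.09 in replicate 1 and -0.01 in replicate 2, near the 0.08 and -0.001 of all genes. This median covers shifts in both directions. Groups did not overlap for 4 genes that were higher and 6 that were lower after rIL-17B, beside 31.5% and 27.5% of all tested genes. In replicate 1, 2 of the 14 lay at least 2-fold below the PBS mean and 0 above it, beside 18.6% and 2.61%.

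Of 19 genes known as STAT3 targets 16 were tested, and for rIL-17B replicate 1 alone 14 were called lower and 1 higher, beside 31.9% and 23.2% of all genes. The median log2 ratio of these targets was -1.17 in replicate 1 and -0.13 in replicate 2, beside 0.08 and -0.001 for all genes. HIF1A, the hypoxia factor, lay at 586, 570, 277 and 526 CPM in PBS replicates 1 and 2 and rIL-17B replicates 1 and 2. TIMP1, a metalloprotease inhibitor, lay at 292, 283, 109 and 257 CPM and the survival gene MCL1 at 268, 259, 220 and 249 CPM. MYC, the growth regulator, was the higher one, at 202, 214, 332 and 225 CPM. The median of these targets was thus lower in the library where SOCS3, also a STAT3 target, was higher. The log2 fold change of STAT3 itself was 0.01 with that library alone. STAT3 activity was not measured. The mesenchymal marker sum was also lower in that library, at 885 CPM, and its part in the target values was not tested.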

How the data were processed

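RNA sequencing of HGC-27 cells covered 2 PBS and 2 rIL-17B libraries. Per the labels, they were made by Smart-seq2 from total RNA (oligo-dT priming, then PCR), so the number of reads is not a number of molecules. The authors deposited raw counts, whole numbers of reads per gene name, with 1 file per library and no normalization. The submitters' processing notes name HISAT2 2.1.0, Bowtie2 2.2.3, TopHat2, HTSeq 0.6.0 and hg38. Neither the annotation nor the strand setting of the counting is given in the sources used here.

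Between 22 and 25 entries per library with names like dates were left out, and 83 to 98 repeated names with equal counts were kept once. Gene names absent from a library were set to 0. CPM is the count divided by the library total and multiplied by 1e+06. Groups came from the treatment labels. Tests used edgeR 4.0.16 in R 4.3.3 with TMM factors, filterByExpr and the quasi-likelihood F test, tested on simulated data beforehand. The simulated libraries all had the same spread, smaller than that of these data, so that run checked the code and not the power here. The 95% intervals and SE belong to these fits, Poisson intervals are exact, and SDs are over 2 libraries. Gene coordinates and exon lengths came from GENCODE 29 on GRCh38, which is the same build as hg38, and promoters from RefSeq. Alternatives were DESeq2 1.42.0, upper-quartile normalization, library totals alone, other filters and thresholds, a replicate block, and each library left out.

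The 9 genes, the other pathway lists and the marker lists were chosen with earlier results of these data known. Named genes were the 9, up to 4 of each pathway list with the highest mean CPM, and the 5 genes nearest to the gene with the largest range. Some genes this rule picks are not reported here. SOCS6, OSM and the genes overlapping one of the 9 were named outside this rule, after their values were seen. Python 3.11.15 with pandas 2.3.3, scipy 1.17.1 and matplotlib 3.10.9 was used for the rest.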

Additional observations from a re-analysis of the deposited data

How the results depend on the processing

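The number of genes called was 0 for all genes, for the 9 genes and for the other pathway genes with all 4 libraries under DESeq2, upper-quartile normalization, library totals alone, a lighter filter (any count), a stricter one (10 or more counts in each library) and an adjusted p under 0.1. The fit with a replicate block called 0 in each as well. The numbers carry no pairing in the labels, and the deviations of same-numbered libraries from their group means correlated at 0.082 across 16361 genes, so the block is given here once. Leaving out 1 library at a time, the number called ranged from 0 to 9489 over all genes, from 0 to 6 among the 9 and from 0 to 35 among the other pathway genes. Without either PBS library it was 0, without rIL-17B replicate 1 it was 504, 0 and 1, and without rIL-17B replicate 2 it was 9489, 6 and 35. The log2 fold change of LIFR turned positive with library totals alone (0.0397) and ranged from -0.105 to 0.0442 with a library left out, positive without rIL-17B replicate 1, and that of SOCS2 ranged from -0.329 to 0.19, positive without PBS replicate 1. The cause was not tested. Of 54 fold changes of the 9 genes under alternatives that kept all 4 libraries, 53 kept their direction and stayed short of the threshold. Of 36 with a library left out, 28 did, 6 passed the threshold, all without rIL-17B replicate 2, and 2 changed sign. The count of genes with non-overlapping groups was 7 to 9, and it was 9 only with a PBS library left out. With fewer libraries in a group, non-overlap is easier to reach for any gene, and the share over all genes was not computed there. The counts of 2-fold differences and of genes above the median per kilobase did not move under their alternatives. Counting error limits SOCS2, IL6R and JAK2 most, and with 2 libraries per group and 1 of them apart, the intervals over all 4 libraries are wide for IL6ST and JAK2.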
